A study of Mus musculus with 24 samples.

Results

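Cathepsins and legumain are the proteases that cut proteins inside endosomes and lysosomes. The count table lists 55487 genes, and 10 of these proteases were taken from it by symbol through their Ensembl IDs: Ctsa, Ctsb, Ctsc, Ctsd, Ctsh, Ctsk, Ctsl, Ctss, Ctsz and Lgmn. All 10 passed the filter on low counts, with between 229 counts (Ctsk) and 398857 counts (Ctsb) in a single library. Each library came from mouse macrophages grown from bone marrow (BMDMs) and kept in culture together with spleen lymphocytes of mice that carried B16-F10-OVA tumours, a melanoma line that makes ovalbumin. The macrophages were Tmem175-/- (knockout) or WT. Tmem175 encodes an ion channel of the lysosome membrane. Each genotype was cultured without antigen, with antigen of B16-F10-OVA tumour cells, with that antigen plus IL-1beta at 500 pg/ml, and with that antigen plus IL-18 at 500 pg/ml. Each of the 8 groups had 3 libraries, 24 in all. The genotype of the lymphocytes, the antigen dose and the culture time are not given in the sources used here. Titles name Tmem175 in all 12 knockout libraries, whereas the genotype field of 11 of these 12 names another gene, with numbers that run on from one library to the next. The labels do not say whether replicates were separate animals or cultures, so p-values measure the spread between these libraries only, which may be technical.

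In background terms, most cathepsins are papain-like cysteine proteases that become active in acid compartments, where they degrade proteins taken up by the cell. In antigen-presenting cells they trim antigen into peptides and cut the invariant chain (Cd74) away from MHC class II molecules, a step in which cathepsin S is best known. Legumain cuts after asparagine and also matures several cathepsins, while cystatins inhibit the cysteine cathepsins.

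The libraries held 17744540 to 24898552 counts. Tmem175 averaged 14.6 ± 0.463 CPM (counts scaled to library size) in knockout and 25.3 ± 0.871 CPM in WT co-cultures without antigen (SD, n = 3 each), and was lower in the knockout in all 4 conditions (log2 fold change between -0.91 and -0.79). The 8 macrophage markers summed to 12600 to 24800 CPM in the 24 libraries, against 8.58 to 15.7 CPM for 7 T cell markers 7.93 to 18.9 CPM for 5 B cell markers, 315 to 1330 CPM for 7 neutrophil markers and 267 to 539 CPM for 6 plasma cell markers. These sums are of different genes and are no shares of the RNA. The T cell receptor gene Cd3e averaged 0.925 to 1.87 CPM in the 8 groups. One library stood apart from its group: knockout replicate 2 without antigen had a standard deviation of log2 difference of 0.241 from its 2 partners over 9870 genes, against 0.104 to 0.207 in the other 23 libraries. For the 10 genes and the counts of related gene lists, calls between genotypes that change without this library are given both ways. Marker lists were not recounted without it, and most single genes outside the 10 are given with all libraries only.

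Together the 10 genes took up 3.64% ± 0.0202 of all gene counts in knockout and 3.23% ± 0.00893 in WT co-cultures without antigen. With antigen the shares were 2.58% ± 0.0785 in knockout and 2.24% ± 0.0881 in WT co-cultures (SD, n = 3 each). The knockout libraries lay above all WT libraries of the same condition. Ctsb, a protease with both endopeptidase and carboxypeptidase action, supplied 47.9% ± 0.377 of these counts in knockout and 51.7% ± 0.663 in WT co-cultures without antigen. With antigen its part was 39.5% ± 0.835 in knockout and 39.7% ± 0.494 in WT co-cultures.

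**Figure D1:**
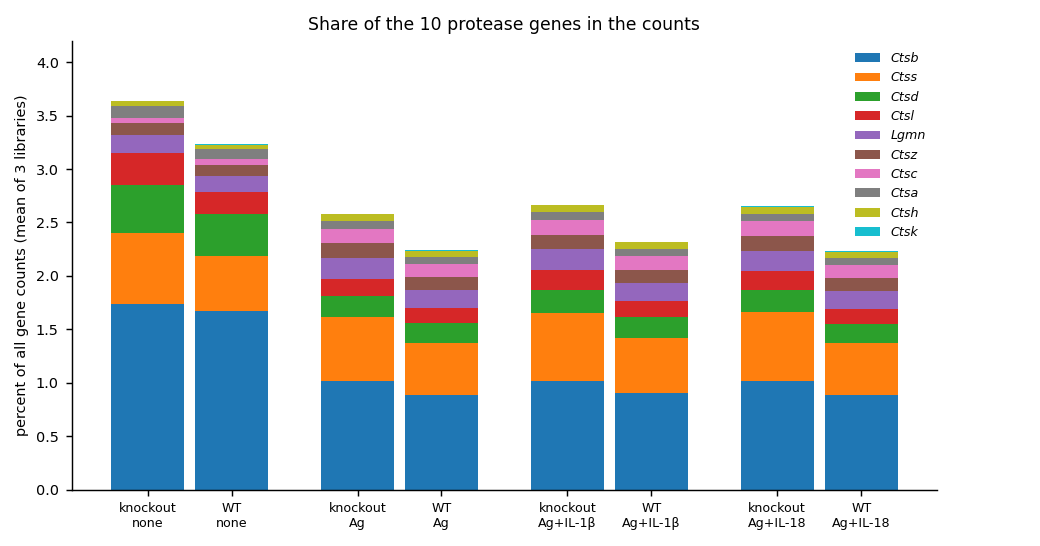
Percent of all gene counts taken by each of the 10 protease genes (stacked bars, y axis, mean of 3 libraries) in knockout and WT co-cultures of the 4 conditions (x axis; Ag, tumour cell antigen). The stack was higher in the knockout of each pair, for example 2.58% against 2.24% with antigen alone, and Ctsb and Ctss made up most of every bar.

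Levels between genes were compared per length, as TPM (counts scaled by gene length and library size) computed here with the longest annotated transcript of each gene. On that scale Ctss, the endopeptidase of invariant chain cleavage, led with a mean of 10400 TPM over the 24 libraries and rank 10 of all genes. Ctsb followed with 6030 TPM (rank 14), then the aspartic protease gene Ctsd with 2970 TPM (rank 24), Lgmn with 2170 TPM and the carboxypeptidase gene Ctsz with 2150 TPM. Ctsc, Ctsl, Ctsa and Ctsh lay between 511 and 845 TPM. Ctsk, the collagen-degrading protease of osteoclasts, came last with 45.8 TPM. The length chosen matters here: with the mean transcript length Ctsb (7380 TPM) lay above Ctss (6070 TPM), and Ctsl moved up to the place 4, whereas Ctsd stayed at place 3 and Ctsk at place 10.

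Between groups the order of the means differed from gene to gene. For Ctsa, Ctsb, Ctsd and Ctsk, knockout co-cultures without antigen were highest, WT co-cultures without antigen second, and all 6 antigen groups lower, with no overlap between these 3 levels. Ctsl had the same first group, but its WT libraries without antigen overlapped knockout libraries with antigen. Ctsc and Ctsh ran the other way, with both groups without antigen at the bottom. Ctsz and Lgmn were lowest in WT without antigen (989 and 1390 CPM on average). For Ctss the 4 knockout groups filled the 4 upper places, and libraries of neighbouring groups overlapped within a genotype but not across it. The highest group mean was 4.96 times the lowest for Ctsk, 3.04 times for Ctsc, 2.53 times for Ctsd, and 1.40 times for Ctss, the smallest span of the 10.

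**Figure D2:**
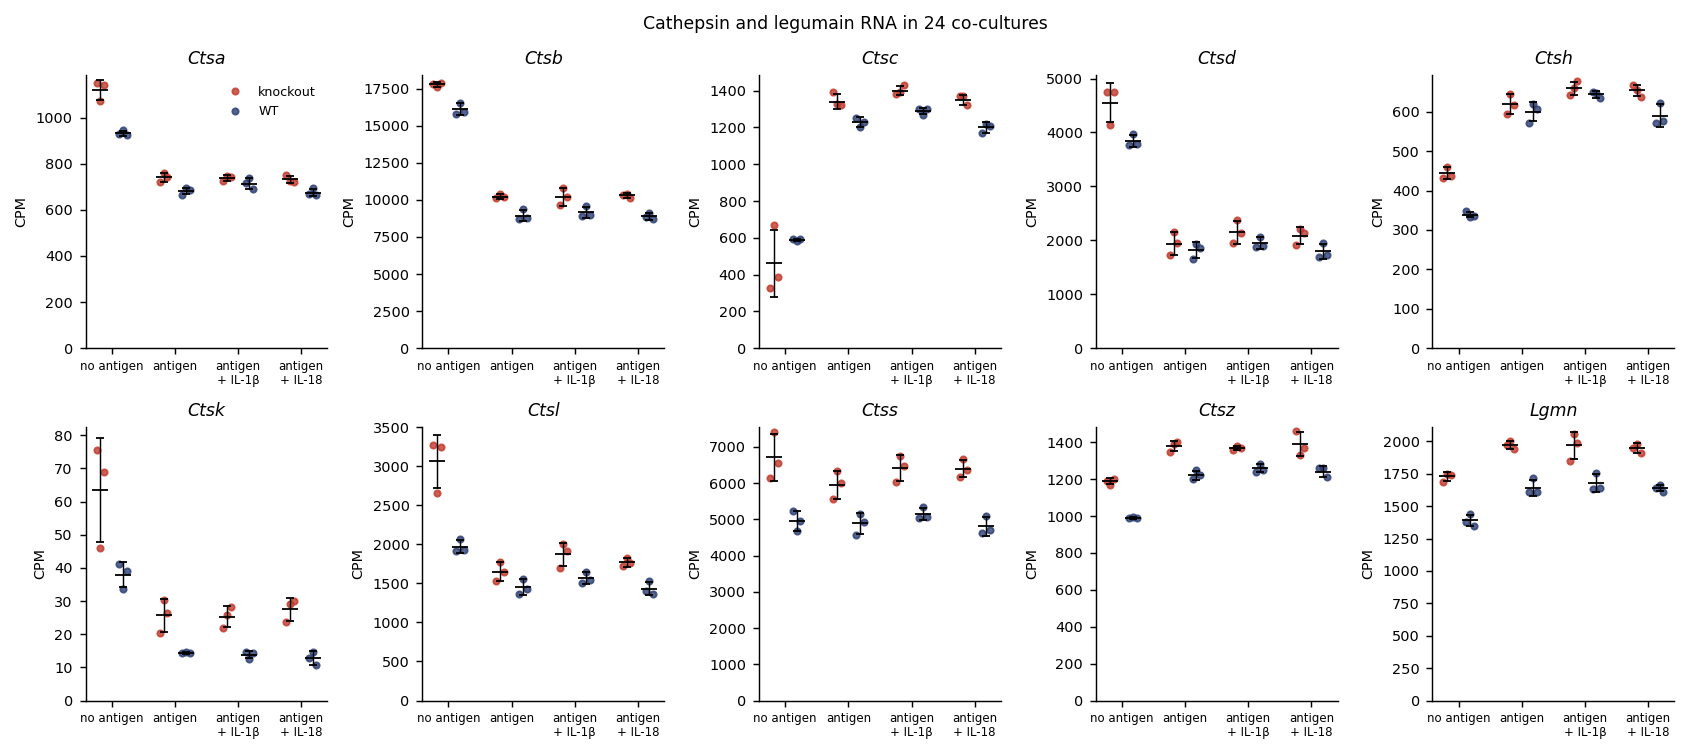
Level in CPM (y axis, linear, from 0) of each of the 10 genes in the 24 co-cultures, by condition (x axis), knockout beside WT; dots are libraries, bars the mean and SD of 3. Ctsa, Ctsb, Ctsd and Ctsk stood highest without antigen, Ctsc and Ctsh with antigen, and the 12 knockout libraries of Ctss (lowest 5560 CPM) lay above all 12 WT libraries (highest 5350 CPM).

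The first comparison asks how the knockout differs from WT in the same condition. Without antigen, 8 of the 10 genes were higher in knockout co-cultures and none was lower, at an adjusted p under 0.05 by edgeR's quasi-likelihood test. Among all 14099 genes tested, 9.62% were higher and 7.25% lower. The median log2 fold change of the 10 genes was 0.29, and that of all genes tested 0.0062. In bulk RNA, fewer cells of a type and less RNA per cell cannot be told apart. In 9 of the 10 genes all 3 knockout libraries lay above all 3 WT libraries, which was the case for 17.3% of all genes tested.

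Among the cysteine endopeptidases, Ctsl, which degrades proteins in lysosomes and trims the invariant chain in thymic epithelium, differed by the widest margin after Ctsk. Its 3 libraries had 3270, 2660 and 3240 CPM in knockout against 1910, 2070 and 1930 CPM in WT co-cultures. Replicate 2 was the lowest knockout library and still lay above every WT library. The fold was 1.55 (log2 fold change 0.63 ± 0.0785 SE, adjusted p = 1.05e-05).

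Ctss had 6150, 7410 and 6560 CPM in knockout against 5220, 4690 and 4960 CPM in WT co-cultures (fold 1.35, adjusted p = 7.1e-05). Here replicate 2 was the highest knockout library. Ctsb showed the smallest called difference: 17800, 17600 and 17900 CPM in knockout against 15800, 16500 and 15900 CPM in WT co-cultures (fold 1.10, adjusted p = 0.00669). The groups did not overlap for either gene.

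Ctsk had 75.6, 45.9 and 69.0 CPM in knockout against 41.2, 33.7 and 39.2 CPM in WT co-cultures. Knockout replicate 2 lay near the WT libraries and the other 2 well above them. The fold was 1.67 (log2 fold change 0.74 ± 0.162 SE, adjusted p = 0.00353). It lost its call when these 2 groups were fitted alone (adjusted p = 0.134), and it was 1.89 without replicate 2 (adjusted p = 6.79e-05). Of 6 osteoclast markers tested among 8, 2 were higher in the knockout and 1 lower, with a median log2 fold change of 0.03. Acp5, tartrate-resistant acid phosphatase, and Atp6v0d2, a proton pump subunit, were the higher ones (1.35 and 0.48), and the fusion gene Dcstamp was the lower one (-0.56), at 30.6 ± 1.79 CPM in knockout and 45.2 ± 4.44 CPM in WT co-cultures. The 8 markers summed to 1750 to 2050 CPM in knockout and 1430 to 1450 CPM in WT co-cultures, and Atp6v0d2 alone averaged 1740 CPM in knockout and 1250 CPM in WT co-cultures. The defining receptor gene Calcr was at 0 in all 6 libraries and Oscar at 0 in the 3 WT libraries. Their part in the Ctsk result was not tested.

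The exopeptidases split. Ctsh, an aminopeptidase, had 432, 460 and 438 CPM in knockout against 347, 333 and 336 CPM in WT co-cultures (fold 1.31, adjusted p = 1.28e-08). Ctsz had 1190, 1170 and 1200 CPM in knockout against 989, 993 and 987 CPM in WT co-cultures (fold 1.2, adjusted p = 3.86e-07). Both groups were tight and lay apart.

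Ctsc, the dipeptidyl peptidase that activates granule serine proteases, was the only one of the 10 with a negative log2 fold change (-0.35 ± 0.159 SE, adjusted p = 0.155). Its libraries had 327, 668 and 388 CPM in knockout against 591, 584 and 592 CPM in WT co-cultures. Knockout replicate 2 lay above the WT libraries and the other 2 far below them. Without replicate 2, Ctsc was 1.65-fold lower in the knockout (log2 fold change -0.73, adjusted p = 9.73e-13). The invariant chain gene Cd74 had 573, 1280 and 664 CPM in knockout against 707, 671 and 763 CPM in WT co-cultures. Its knockout replicate 2 also lay above the WT libraries and the other 2 below them, replicate 3 only just.

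**Figure D3:**
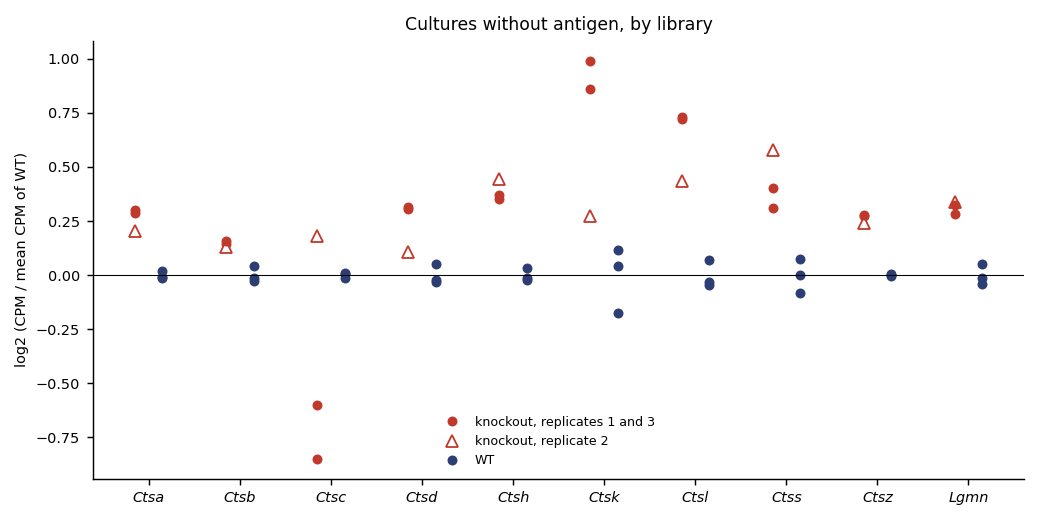
Each library without antigen, as log2 of its CPM over the WT mean of the same gene (y axis), for the 10 genes (x axis); open triangles mark knockout replicate 2. In Ctsc that library lay above the WT mean while knockout replicates 1 and 3 lay below it, and in Ctsk and Ctsl it was the knockout library nearest to WT.

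The remaining proteases belong to other classes. Ctsd, the main aspartic protease of lysosomes, had 4750, 4130 and 4760 CPM in knockout against 3760, 3970 and 3780 CPM in WT co-cultures. The groups did not overlap, yet the difference missed the threshold (log2 fold change 0.25 ± 0.0906 SE, adjusted p = 0.0768). It passed without replicate 2 (0.30, adjusted p = 0.0399), by DESeq2 (0.0182) and with the pair fitted alone (0.0141).

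Ctsa, a serine carboxypeptidase that also protects neuraminidase and beta-galactosidase, had 1150, 1070 and 1140 CPM in knockout against 927, 946 and 924 CPM in WT co-cultures (fold 1.2, adjusted p = 8.66e-07). Lgmn had 1690, 1750 and 1740 CPM in knockout against 1380, 1440 and 1350 CPM in WT co-cultures (fold 1.24, adjusted p = 4.54e-07). Neither pair of groups overlapped. Without replicate 2 the count over the family became 9 higher and 1 lower, beside 9.66% and 8.67% of all genes tested.

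With antigen alone, 6 of the 10 genes were higher in the knockout and none was lower, beside 7.7% and 7.62% of all genes tested. In 7 genes the libraries of the 2 genotypes did not overlap, all with the knockout higher, as in 15.9% of all genes. The median log2 fold change of the 10 was 0.18, against 0.0042 over all genes. The 6 were Ctsa, Ctsb, Ctsk, Ctss, Ctsz and Lgmn. Ctsk had the widest margin, with 20.4, 30.4 and 26.4 CPM in knockout against 14.3, 14.7 and 14.2 CPM in WT co-cultures (fold 1.78, log2 fold change 0.83 ± 0.197 SE, adjusted p = 0.00759). Every knockout library lay above every WT library, with a wide spread in the knockout and a narrow one in WT.

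Ctss had 5560, 6330 and 6010 CPM in knockout against 4580, 5150 and 4930 CPM in WT co-cultures with antigen (fold 1.22, adjusted p = 0.00465). Lgmn had 1970, 2000 and 1940 CPM in knockout against 1610, 1720 and 1610 CPM in WT co-cultures (fold 1.2, adjusted p = 1.1e-05). Neither pair of groups overlapped. Ctsb was 1.14-fold, Ctsz 1.13-fold and Ctsa 1.09-fold higher. For Ctsa the call was lost without knockout replicate 2 (adjusted p = 0.0502) or without WT replicate 1 (0.0698).

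The other 4 genes missed the threshold with antigen alone. Ctsl gave 0.18 (adjusted p = 0.132), Ctsd 0.10 (adjusted p = 0.547) and Ctsh 0.05 (adjusted p = 0.487) on the log2 scale, and their libraries overlapped between genotypes. Ctsc had 1390, 1330 and 1320 CPM in knockout against 1250, 1200 and 1230 CPM in WT co-cultures. These groups lay apart, but with the spread taken over all 8 groups the log2 fold change was 0.13 ± 0.157 SE (adjusted p = 0.661). Fitted alone, the pair passed (adjusted p = 0.0317), as did those with IL-1beta (0.0127) and IL-18 (0.00296). The Ctsc libraries spread most in knockout co-cultures without antigen (SD 182 CPM, against 4.43 to 40.2 CPM in the other groups). The genotype comparisons with antigen were not refitted without a library of that group.

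With antigen plus IL-1beta, again 6 genes were higher in the knockout and none lower, beside 7.22% and 6.55% of all genes tested. These were Ctsb, Ctsk, Ctsl, Ctss, Ctsz and Lgmn. With antigen plus IL-18 there were 8 higher and none lower, beside 9.89% and 10.3% of all genes tested, and the 2 not called were Ctsc and Ctsd. All 3 knockout libraries lay above all 3 WT libraries in 7 genes with IL-1beta (16.1% of all genes tested) and in 9 with IL-18 (17.5%). Ctsk was 1.83-fold higher with IL-1beta (adjusted p = 0.00623) and 2.16-fold higher with IL-18 (adjusted p = 0.000748), where its libraries had 23.7, 29.1 and 29.9 CPM in knockout against 12.9, 14.7 and 10.7 CPM in WT co-cultures. Its lowest knockout library lay well above its highest WT library.

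Ctss had 6030, 6740 and 6460 CPM in knockout against 5030, 5350 and 5070 CPM in WT co-cultures with IL-1beta (fold 1.24, adjusted p = 0.00241). With IL-18 it had 6180, 6660 and 6370 CPM in knockout against 4630, 5100 and 4700 CPM in WT co-cultures (fold 1.33, adjusted p = 0.000143). The genotypes lay apart in both. Lgmn was 1.17-fold higher with IL-1beta and 1.19-fold higher with IL-18. Ctsl was 1.24-fold higher with IL-18 (adjusted p = 0.00947) and 1.19-fold higher with IL-1beta (adjusted p = 0.0351), a call lost on leaving out any of 4 of the 6 libraries (adjusted p 0.105 to 0.155) or with no filter on low counts (0.0732). The Ctsa call with IL-18 (log2 fold change 0.12, adjusted p = 0.0135) was lost without knockout replicate 1 (0.0652) or WT replicate 3 (0.071).

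**Figure D4:**
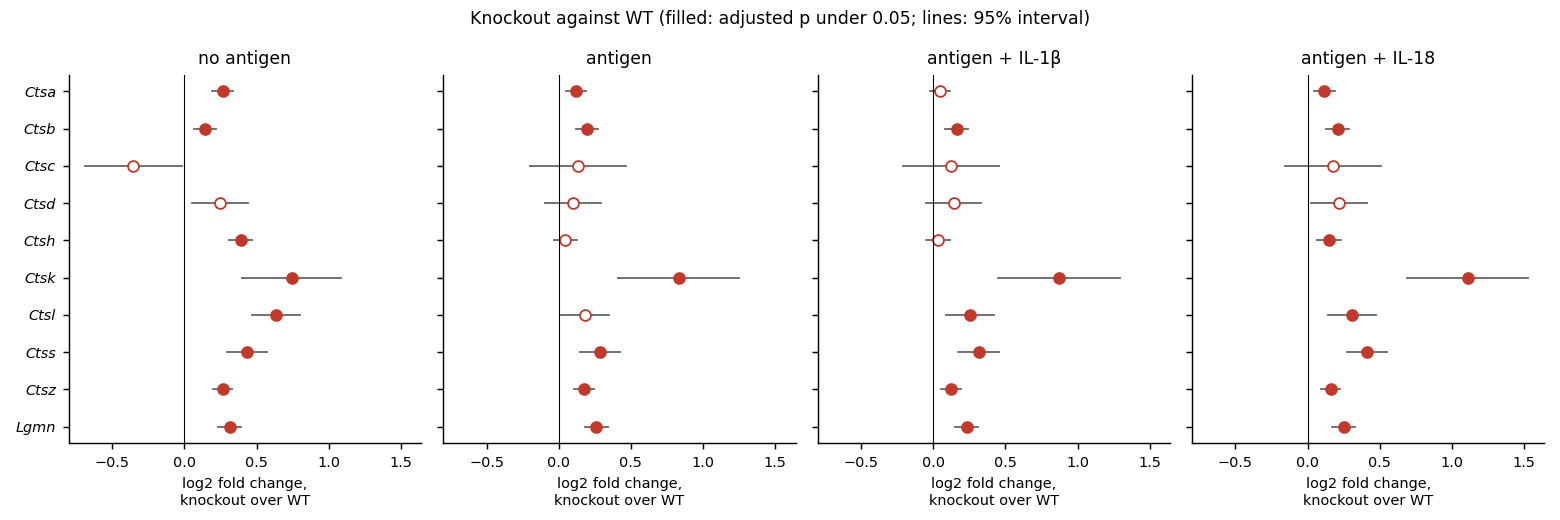
Log2 fold change of knockout over WT (x axis) with its 95% interval for each gene (y axis) in the 4 conditions; filled points passed an adjusted p of 0.05. Ctsb, Ctsk, Ctss, Ctsz and Lgmn were filled and right of 0 in all 4 panels, and Ctsc was open in all 4 and left of 0 without antigen only.

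The genes called in all 4 conditions were Ctsb, Ctsk, Ctss, Ctsz and Lgmn. Other values moved with genotype in the same libraries. The 8 macrophage markers summed to 12600 to 13100 CPM in knockout and 17900 to 18400 CPM in WT co-cultures without antigen, and to 14800 to 17200 CPM in knockout and 23800 to 24800 CPM in WT co-cultures with antigen. Lysozyme (Lyz2) made up most of that gap, with means of 6080 CPM in knockout and 11300 CPM in WT co-cultures without antigen. Cd68, a lysosomal membrane protein of macrophages, was instead higher in the knockout (log2 fold change 0.21 to 0.29 in the 4 conditions). The list was mixed: 2 of the 8 macrophage markers were higher and 3 lower in the knockout without antigen. With antigen alone and with IL-1beta 1 was higher and 1 lower, and with IL-18 2 were higher and 1 lower. The medians of this list lay between -0.05 and 0.12 on the log2 scale. The 7 fibroblast markers summed to 42.0 to 50.5 CPM in knockout and 125 to 189 CPM in WT co-cultures with antigen, while the 8 osteoclast markers summed to 478 to 664 CPM in knockout and 467 to 474 CPM in WT co-cultures. The plasma cell markers showed the widest margin: 4 of 5 tested were higher in the knockout in each condition. Their list medians lay between 2.33 and 4.21 on the log2 scale. The remaining 1 was not called without antigen and was lower in the knockout in every condition with antigen. Jchain, the joining chain of secreted antibodies, averaged 191 ± 26.4 CPM in knockout and 8.46 ± 1.03 CPM in WT co-cultures without antigen. Of 5 dendritic cell markers tested, between 2 and 4 were lower in the knockout and none higher, depending on the condition. Of 7 neutrophil markers, none was called without antigen, 2 were higher in the knockout with antigen and 5 with each cytokine. The part of these in the protease results was not tested.

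The second comparison asks what tumour cell antigen does within a genotype. The 10 genes split in the same way in both genotypes. Ctsc, Ctsh, Ctsz and Lgmn rose with antigen, and Ctsa, Ctsb, Ctsd, Ctsk and Ctsl fell. In knockout co-cultures this came to 4 higher and 6 lower, the sixth being Ctss, beside 33.8% and 34.6% of all genes tested, and in WT co-cultures to 4 higher and 5 lower, beside 33.5% and 34.5%. Most genes of the transcriptome were called in these comparisons, so a call alone sets a gene little apart.

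Ctsc rose most. It reached 1390, 1330 and 1320 CPM with antigen against 327, 668 and 388 CPM without it in knockout co-cultures (fold 2.92, log2 fold change 1.54 ± 0.162 SE, adjusted p = 1.62e-07). In WT co-cultures it had 1250, 1200 and 1230 CPM with antigen against 591, 584 and 592 CPM without (fold 2.08, log2 fold change 1.06 ± 0.160 SE, adjusted p = 1.39e-05). No library with antigen overlapped one without. Without knockout replicate 2 the knockout fold was 3.81.

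Ctsh had 595, 645 and 617 CPM with antigen against 432, 460 and 438 CPM without it in knockout co-cultures (fold 1.40, adjusted p = 5.64e-12). In WT co-cultures it had 572, 619 and 607 CPM with antigen against 347, 333 and 336 CPM without (fold 1.77, adjusted p = 4.02e-17). The libraries of knockout and WT overlapped with antigen and lay apart without it. Ctsz and Lgmn rose less: 1.16-fold and 1.14-fold in knockout, and 1.24-fold and 1.18-fold in WT co-cultures.

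Among the genes that fell, Ctsk changed most. It had 20.4, 30.4 and 26.4 CPM with antigen against 75.6, 45.9 and 69.0 CPM without in knockout co-cultures (2.48-fold lower, adjusted p = 1.82e-06), and 14.3, 14.7 and 14.2 CPM with antigen against 41.2, 33.7 and 39.2 CPM without in WT co-cultures (2.64-fold lower, adjusted p = 3.88e-06). Ctsd fell to 1730, 2150 and 1960 CPM with antigen, against 4750, 4130 and 4760 CPM without, in knockout co-cultures (2.34-fold lower, adjusted p = 1.11e-09). In WT co-cultures it fell to 1660, 1940 and 1850 CPM with antigen, against 3760, 3970 and 3780 CPM without (2.11-fold lower, adjusted p = 6.51e-09). None of these groups overlapped.

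Ctsb fell to 10100, 10400 and 10200 CPM with antigen, against 17800, 17600 and 17900 CPM without, in knockout co-cultures (1.74-fold lower, adjusted p = 3.58e-17). It fell to 8680, 9350 and 8760 CPM with antigen, against 15800, 16500 and 15900 CPM without, in WT co-cultures (1.80-fold lower, adjusted p = 9.66e-18). Ctsl was 1.86-fold lower in knockout and 1.36-fold lower in WT co-cultures, and Ctsa 1.51-fold and 1.37-fold lower. Ctss is the exception among the endopeptidases: its log2 fold change was -0.17 in knockout (adjusted p = 0.0281) and -0.02 in WT co-cultures (adjusted p = 0.799), and its libraries with and without antigen overlapped in both. The knockout call was lost without replicate 2 of the group without antigen (-0.07, adjusted p = 0.328), without its replicate 3 (0.0567), without replicate 1 of the group with antigen (0.258), with no filter on low counts (0.1) and with the 2 groups fitted alone (0.0867).

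The summed osteoclast and neutrophil markers were lower with antigen too. Summed macrophage, dendritic cell, fibroblast and B cell markers were higher in both genotypes. T cell sums rose and plasma cell sums fell in knockout co-cultures and overlapped in WT. Macrophage markers summed to 14800 to 17200 CPM with antigen and 12600 to 13100 CPM without in knockout co-cultures. In WT co-cultures this was 23800 to 24800 CPM with antigen and 17900 to 18400 CPM without. Of the 8 macrophage markers, 4 were higher and 3 lower in each genotype. Among all genes tested, 33.8% were higher and 34.6% lower in knockout co-cultures, and 33.5% and 34.5% in WT. All 7 neutrophil markers were lower in both genotypes. Of 6 osteoclast markers tested, 2 were higher and 4 lower in knockout, and 2 higher and 3 lower in WT co-cultures, Acp5 being higher in both (log2 fold change 2.11 in knockout and 3.05 in WT co-cultures). The 8 osteoclast markers summed to 478 to 664 CPM with antigen and 1750 to 2050 CPM without in knockout co-cultures, and to 467 to 474 CPM with antigen and 1430 to 1450 CPM without in WT co-cultures. The 7 neutrophil markers summed to 375 to 433 CPM with antigen and 1230 to 1330 CPM without in knockout co-cultures, and to 347 to 420 CPM with antigen and 1170 to 1320 CPM without in WT co-cultures. The part of these marker lists in the protease results was not tested.

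**Figure D5:**
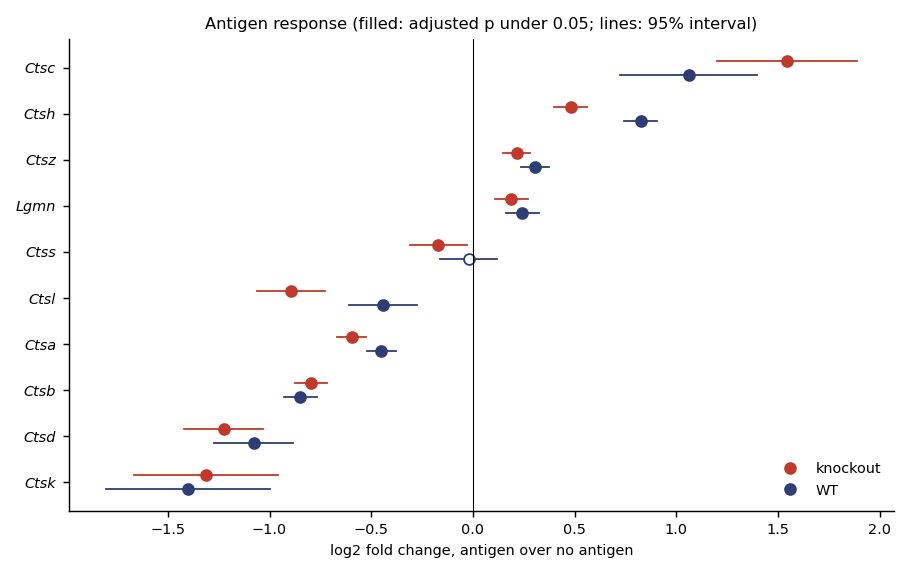
Log2 fold change of antigen over no antigen (x axis) with its 95% interval for each gene (y axis), knockout above WT; filled points passed an adjusted p of 0.05. Ctsc, Ctsh, Ctsz and Lgmn lay right of 0 and Ctsa, Ctsb, Ctsd, Ctsk and Ctsl left of 0 in both genotypes, with Ctsh and Ctsl furthest apart between genotypes relative to their intervals.

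Because these genes moved in 2 opposite sets, their promoters were read for the letters of known lysosomal and interferon elements. TFEB and MITF, regulators of lysosomal genes, bind E-boxes with the core CACGTG, and interferon regulatory factors bind paired GAAA repeats. RefSeq promoter windows (mouse build GRCm38.p6, 250 bases before each annotated start, both strands) matched 8 of the 10 genes by symbol. Ctsb and Ctsh had no window and were not searched. CACGTG was present in 4 of these 8, Ctsa, Ctsd, Ctsl and Lgmn, and in 6.86% of 27025 genes with a window. The longer TCACGTG was present in Ctsa, Ctsd and Lgmn and in 3.58% of genes, TCATGTG in none of the 8 and in 3.72% of genes, and the paired GAAA repeat with any 2 bases between in Ctss alone and in 3.46% of genes. The stretches below hold the matches, in capitals, with 5 to 10 bases on each side; TCACGTGA is a match on both strands at once, and every TCACGTG is also a CACGTG.
Ctsa, chr2:164833750-164833772, plus strand, ending 1 base before the start and overlapping annotated exons: gagcaaactgTCACGTGAtgcag
Ctsd, chr7:142387909-142387936, minus strand, 109 to 82 bases before the start, overlapping an annotated exon: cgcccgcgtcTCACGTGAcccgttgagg
Ctsd, chr7:142388056-142388077, minus strand, 250 to 229 bases before the start: tccccCACGTGAcctgtatcca
Ctsl, chr13:64370741-64370766, minus strand, 246 to 221 bases before the start, overlapping an annotated exon: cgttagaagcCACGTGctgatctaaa
Lgmn, chr12:102439126-102439152, minus strand, 60 to 34 bases before one of its starts: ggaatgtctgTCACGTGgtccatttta
Ctss, chr3:95526755-95526784, plus strand, 31 to 2 bases before the start: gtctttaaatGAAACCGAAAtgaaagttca
Of the 4 genes with CACGTG, Ctsa, Ctsd and Ctsl fell with antigen and Lgmn rose. For Ctsa and Lgmn, the window of another annotated start held none of these matches. A match describes these letters only, and binding was not measured.

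The third comparison is the difference of the antigen response between genotypes, tested as an interaction. It was called for 2 of the 10 genes, both lower in the knockout, beside 3.79% of all genes tested higher and 4.6% lower. For Ctsh the response was smaller in the knockout by 0.34 ± 0.0543 SE on the log2 scale (log2 difference -0.34, adjusted p = 0.000111). For Ctsl the fall was deeper in the knockout (log2 difference -0.45 ± 0.111 SE, adjusted p = 0.0156). Both genes differed between genotypes without antigen, and neither passed with antigen alone.

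The Ctsl difference missed the threshold without knockout replicate 1 with antigen (adjusted p = 0.0693) and with the 4 groups fitted alone (0.066). Ctsa lay just outside (log2 difference -0.14, adjusted p = 0.054) and passed in 6 alternatives (0.0121 to 0.0446). Ctsc had the widest difference, 0.48 ± 0.224 SE (95% interval 0.01 to 0.96, adjusted p = 0.222). Without knockout replicate 2 of the group without antigen, 4 genes were called, beside 6.03% of all genes tested higher and 5.83% lower. These were Ctsc at 0.85 (adjusted p = 1.13e-10), Ctsa at -0.17 (0.0121), Ctsh at -0.31 (0.000183) and Ctsl at -0.54 (0.000817). The genotype and antigen comparisons share libraries, so their values are not independent of each other.

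The last comparisons asked whether IL-1beta or IL-18 added to antigen changed these genes. By edgeR's quasi-likelihood test, none of the 10 was called in any of the 4 comparisons of a cytokine plus antigen with antigen alone, nor was one by DESeq2. At an unadjusted p under 0.05 there were 2 genes for IL-1beta in knockout (Ctsl and Ctsh), 1 for IL-1beta in WT (Ctsh), 1 for IL-18 in knockout (Ctsh) and 0 for IL-18 in WT co-cultures. Of all genes tested, 0.0426%, 0.0567%, 0.213% and 0% were called in the same order. The log2 fold changes of the 10 genes lay between -0.02 and 0.19 for IL-1beta in knockout, between -0.06 and 0.12 for IL-1beta in WT, between -0.02 and 0.11 for IL-18 in knockout, and between -0.17 and 0.02 for IL-18 in WT co-cultures.

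Their 95% intervals bound what these libraries could miss. Over the 10 genes the interval ends furthest from 0 were -0.63 and 0.49, and the widest intervals belonged to the scarce Ctsk. Ctsl, the gene with the highest value, had 1700, 2000 and 1920 CPM with antigen plus IL-1beta against 1530, 1770 and 1640 CPM with antigen alone in knockout co-cultures, and these libraries overlapped. A difference of the cytokine response between genotypes was called for none of the 10 genes by edgeR's quasi-likelihood test or DESeq2, with 0 of them at an unadjusted p under 0.05 for either cytokine.

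Genes that work with these proteases were read from 6 lists. Of 8 cathepsin inhibitors measured well enough among 12, 2 were higher and 1 lower in the knockout without antigen, and 2 higher and 2 lower without knockout replicate 2. Cst3, cystatin C, was among the higher ones, averaging 760 ± 25.2 CPM in knockout and 620 ± 8.81 CPM in WT co-cultures (log2 fold change 0.29), and it was higher in the other 3 conditions too (0.25 to 0.35). Cst7, cystatin F, was the lower one (-0.75), at a mean of 0.914 CPM in knockout and 1.52 CPM in WT co-cultures. With antigen alone 2 were higher (Cst3 and Cstb, cystatin B) and none lower. With antigen plus IL-1beta and with antigen plus IL-18 the count was 1 higher and none lower, Cst3 each time.

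With antigen, 2 of the 8 inhibitors were higher and 4 lower in knockout co-cultures (3 and 4 without replicate 2), beside 33.8% and 34.6% of all genes tested. In WT co-cultures 3 were higher and 4 lower, beside 33.5% and 34.5%. Cst3 fell with antigen, by 0.93 on the log2 scale in knockout and by 0.89 in WT co-cultures. Cst7, from a low level, rose by 2.45 in knockout and 1.79 in WT co-cultures, and Cstb by 0.29 in knockout and 0.30 in WT co-cultures.

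Of 5 other cathepsins, Ctsf, a cysteine protease, was lower in the knockout in all 4 conditions, against the direction of the 10 genes. It averaged 2.68 ± 0.800 CPM in knockout and 4.32 ± 0.527 CPM in WT co-cultures with antigen (log2 fold change -0.71). Without antigen it averaged 9.67 ± 0.357 CPM in knockout and 12.1 ± 1.11 CPM in WT co-cultures (-0.32), a call that was lost without knockout replicate 2. The aspartic protease gene Ctse was higher in the knockout with antigen plus IL-18 (0.46), and no other gene of the list was called between genotypes.

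Of 6 other lysosomal peptidases, 2 were higher and none lower in the knockout without antigen (3 and 1 without knockout replicate 2), 2 higher and 1 lower with antigen, and 3 higher and none lower with each cytokine. Napsa, an aspartic protease, averaged 77.2 ± 3.97 CPM in knockout and 46.0 ± 0.516 CPM in WT co-cultures without antigen (log2 fold change 0.75). The tripeptidyl peptidase gene Tpp1 was higher by 0.13 to 0.25 in the 4 conditions. With antigen, 4 of the 6 fell and 2 rose in both genotypes, Napsa and Tpp1 among those that fell. Of all genes tested, 33.8% rose and 34.6% fell in knockout co-cultures, and 33.5% and 34.5% in WT.

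In the list of 11 genes of antigen processing and MHC class II loading, 2 were higher and 1 lower in the knockout without antigen, with a median log2 fold change of 0.23. One library set that direction: without knockout replicate 2 the count was 1 higher and 2 lower and the median -0.22. With antigen 1 was higher, and with antigen plus IL-1beta 1 was higher. With antigen plus IL-18, 7 were higher and none lower, Cd74 (log2 fold change 0.92), H2-Aa (0.88) and Ciita (1.07), the class II transactivator, among them. Ifi30, the thiol reductase that opens disulfide bonds of antigens for the cathepsins, was higher in all 4 conditions, with means of 279 ± 31.8 CPM in knockout and 156 ± 3.89 CPM in WT co-cultures without antigen (0.84). With antigen 2 of the 11 were higher and 9 lower in knockout co-cultures (median log2 fold change -0.997), beside 34.6% of all genes lower. Without replicate 2 of the group without antigen this was 1 higher and 8 lower (median -0.53). In WT co-cultures 1 was higher and 9 lower, beside 34.5% of all genes lower. Cd74 was lower by 1.15 in knockout and by 1.22 in WT co-cultures on the log2 scale. Sppl2a, the membrane protease that removes the last fragment of Cd74, was instead higher by 0.70 and 0.58. For Cd74 the knockout libraries without antigen ran from 573 to 1280 CPM, replicate 2 being the highest. The knockout fall of Cd74 without that library is not given here, so the 2 falls cannot be called alike.

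Of 6 genes that sort enzymes to lysosomes, 3 were higher in the knockout without antigen, 2 with antigen, 2 with antigen plus IL-1beta and 1 with antigen plus IL-18, and none was lower. With antigen 5 fell and 1 rose in both genotypes, beside 34.6% of all genes lower and 33.8% higher in knockout co-cultures (34.5% and 33.5% in WT). The mannose 6-phosphate receptors went opposite ways: Igf2r fell by 1.08 in knockout and by 1.01 in WT co-cultures, and M6pr rose by 0.50 and 0.46. Among 4 regulators, Tfeb and Mitf were higher in the knockout without antigen (log2 fold change 0.24 and 0.23) and Mitf was lower with antigen (-0.16) and with antigen plus IL-18 (-0.17). With antigen 3 of the 4 fell in both genotypes, Tfeb by 1.76 in knockout and by 1.40 in WT co-cultures.

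Within the family, the genes fell only partly into 2 patterns over the 8 group means of log2 CPM. Pearson correlations among Ctsa, Ctsb, Ctsd, Ctsk and Ctsl ran between 0.886 and 0.992, and Ctsz correlated with Lgmn at 0.952 and with Ctsh at 0.915. Ctsc and Ctsd ran opposite, at -0.959. Lgmn correlated with Ctsc at 0.548 and with Ctsk at 0.014. Ctss followed neither pattern closely, at 0.311 with Ctsd, 0.663 with Ctsk, 0.729 with Lgmn and -0.126 with Ctsc. These describe 8 means, of which 6 come from groups with antigen. Among 9860 genes compared, the closest to each were Dio2 for Ctsa (0.997), Capn2 for Ctsb (0.999), AW112010 for Ctsc (0.999), Fam118b for Ctsd (0.999) and Naip1 for Ctsh (0.994). For Ctss it was Maoa (0.987), for Ctsz F10 (0.991) and for Lgmn AC166110.3 (0.9955).

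For Ctsk the closest were Akr1b8 (0.996) and Arhgef10l (0.995). Akr1b8 was also first over the 24 single libraries (0.976). For Ctsl they were Trappc6b (0.995), Atp6v1e1 (0.989), a subunit of the lysosomal proton pump, and Ero1lb (0.988). Over the 24 libraries Trappc6b stood at 0.653 and Atp6v1e1 stood at 0.957.

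Counting could blur some of these values. Strand was not given, and Ctsa overlaps Neurl2 and Pltp, Ctsb overlaps Fdft1 and Ctsz overlaps Nelfcd on the opposite strand in the annotation, so reads in shared stretches cannot be told apart. Ctsc overlaps Gm26522 and Ctsl overlaps Gm47123 in the same way. On the same strand, Ctsd overlaps Gm49369, Ctsl overlaps Gm49230 and Ctss overlaps the pseudogene Hmgb1-ps5, so the counts of these 3 are uncertain whatever the strand setting. Ctsh, Ctsk and Lgmn overlap no annotated gene.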

How the data were processed

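RNA was selected by poly A, per the labels' protocols, and the authors deposited raw counts per Ensembl gene for 24 libraries. Fastp and the build GRCm39 are named in the submitters' processing notes; the aligner, counter, strand setting and annotation are not given in the sources used here. Genes with no symbol (346) held 0.0228% of counts.

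Counts were tested with edgeR 4.0.16 in R 4.3.3 (filterByExpr by group, TMM factors, robust quasi-likelihood fit, 1 coefficient per group, 16 residual degrees of freedom). The filter kept 14099 genes with 99.937% of counts. P-values were adjusted by Benjamini-Hochberg over all genes tested in each of 13 comparisons, with a threshold of 0.05. The fit was tested on simulated data. The common biological coefficient of variation was 5.01%. CPM use TMM library sizes. Lengths come from GENCODE vM21, promoters from RefSeq (GRCm38.p6).

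All 10 members are named, called or not; other genes come from lists of related genes and markers, or are the gene most like each member (up to 3 for Ctsk and Ctsl). The members and lists were chosen with earlier results of these data known. Alternatives were median-of-ratios size factors, no filter on low counts, DESeq2 1.42.0 (Wald test), a replicate block, the groups compared alone, removal of 432 immunoglobulin genes, and each library left out in turn. For the lists of related genes, but not the marker lists, leaving out knockout replicate 2 without antigen was added after seeing the data. No fit of the main comparisons dropped or imputed a library.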

Additional observations from a re-analysis of the deposited data

Results flagged for a closer look

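For 2 of the 10 genes the response to antigen differed between genotypes by a test of the difference itself. For Ctsh the antigen response was lower in the knockout than in WT co-cultures by a log2 difference of -0.34, with a 1.40-fold rise in knockout and a 1.77-fold rise in WT co-cultures. For Ctsl the log2 difference was -0.45, with a 1.86-fold fall in knockout and a 1.36-fold fall in WT co-cultures. By edgeR's quasi-likelihood test the Ctsl call was lost with these groups fitted alone (adjusted p = 0.066). It was also lost without knockout replicate 1 with antigen (adjusted p = 0.0693). The cause of either difference was not tested. Groups of 3 libraries are too small to single out a library gene by gene.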

How the results depend on the processing

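Of 1740 repeats of the 130 gene tests, 1706 kept their direction and their side of the threshold, 17 lost the call, 17 gained one and none reversed. Gains were for Ctsd (without antigen and with IL-18), Ctsc, and the Ctsa antigen difference; losses were for Ctsk without antigen, Ctsa, Ctsl and Ctss as given above, and their cause was not tested. The count of the 10 genes called for the difference of the antigen response was 2, against 3 by DESeq2, 1 with the groups compared alone and 1 to 4 on leaving out a library. Ctsa also joined the called genes with median-of-ratios size factors, with the replicate block and without immunoglobulin genes. Counts over all genes moved mainly where few were called. IL-1beta in knockout gave 6 genes, against 287 with no filter, 422 with a replicate block, 18 by DESeq2 and 1 to 284 without a library. IL-1beta in WT gave 8, against 79 with no filter, 102 with the block, 46 alone and 2 to 7 without a library. IL-18 in knockout gave 30, against 302 with no filter, 274 with the block, 0 alone, 112 by DESeq2 and 0 to 233 without a library. IL-18 in WT gave 0 (580 at an unadjusted p under 0.05), against 2 with no filter, 1 with the block, 2 alone, 1 by DESeq2 and 0 to 1 without a library. The genotype difference of the IL-1beta response gave 0 (576 unadjusted), and 1 with no filter. That of the IL-18 response gave 0 (919 unadjusted), against 17 with no filter, 5 with the block, 4 by DESeq2 and 0 to 3 without a library. Knockout against WT with antigen plus IL-18 gave 2851, and 1867 to 2562 without a library. For levels per length, only Ctsd, Ctsh and Ctsk kept their place among the 10 genes with the mean transcript length.

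The labels do not pair the libraries by replicate number, and the data did not meet the rule used for pairing: same-numbered libraries correlated at 0.00656 to 0.212 in their deviations, with 11 of 30 pairs above 0.1 and no comparison with all 3 above it. In 4 of 10 comparisons all 6 libraries correlated best with their own number, a hint from the data that the numbers may share something. With the replicate block Ctsd passed without antigen (adjusted p = 0.0175) and with IL-18 (0.0344), as did the Ctsa antigen difference (0.0338), and no other call on the 10 genes changed. Depth limits Ctsk most, with the fewest counts of the 10.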

Other observations

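Within the 6 groups that received antigen, the library numbered 2 held the highest CPM of its group in all 6 groups for Ctsb, Ctsd, Ctsl, Ctss and Lgmn, and the library numbered 1 held the lowest in all 6 groups for Ctsd and Ctss. For Ctsc each number was highest in 2 of the 6 groups. The labels do not say whether a number marks a shared day, animal or batch, and what it marks was not tested.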
